A study of Homo sapiens with 6 samples.

Results

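The genes of the proteasome, the cell's main protease for ubiquitin-tagged proteins, were examined in BT549 cells after knockdown of BNC2. They were chosen by symbol alone, as every gene called PSMA to PSMG followed by a number, and the rule found 48 of the 23346 genes in the count table. The study asked what basonuclin-2 (BNC2), a zinc finger protein of mesenchymal cells, controls in cells that express it at their own level. Poly(A) RNA was sequenced from 3 libraries of cells given NC siRNA (the negative control) and 3 libraries of cells given BNC2 siRNA. All cells were BT549, an established breast cancer line labelled as mesenchymal and of WT genotype, grown in RPMI with fetal calf serum, transfected with 20 nM siRNA and harvested at day 6. The labels name Lipofectamine 2000 as the transfection reagent and the methods name RNAiMax. The methods describe the knockdown as an equal mix of 3 siRNAs to BNC2, so that the siRNAs cannot be told apart in these libraries, and describe the 3 libraries of each group as biological replicates.

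The proteasome is a barrel-shaped core particle, the 20S, whose ends are opened by caps that bind there. The outer rings of the core are built from alpha subunits, which gate the ends, and the inner rings from beta subunits, and PSMB5, PSMB6 and PSMB7 carry the cutting sites. In the immunoproteasome, which interferon induces and which shapes peptides for MHC class I, these are replaced by PSMB8, PSMB9 and PSMB10 in that order. The 19S cap recognises ubiquitin, unfolds the substrate with a ring of ATPases and feeds it into the core, and other activators can take its place. Dedicated chaperones assemble each part, and the transcription factor NRF1 raises subunit genes together when proteasome activity falls short.

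The siRNAs define the comparison, and their antisense strands are given from the study's list of small RNAs, 5′ to 3′, with the seed (bases 2 to 8) in capitals.

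BNC2 siRNA 1: uUUACACUgaucacaagucct
BNC2 siRNA 2: uUGUCAUAgaaugucuucctt
BNC2 siRNA 3: uUUCGGCUucguacagaggtt
NC siRNA: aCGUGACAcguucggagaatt

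A 7-base match to the seed of BNC2 siRNA 1 was held by the 3′UTR of 8.33% of the 48 proteasome genes, against 11.6% of 16811 genes. For BNC2 siRNA 2 the shares were 4.17% and 9.11%, for BNC2 siRNA 3 they were 2.08% and 1.84%, and for NC siRNA 2.08% and 2.65%. The genes with a 3′UTR match to a BNC2 siRNA were PSMA4, PSMB2, PSMD9, PSMD11 and PSME4. Of the 5 largest falls and 5 largest rises described below, PSMB9, PSMB7, PSMB3, PSMA2, PSMG4, PSMF1 and PSMC3 held no match to any of the 4 seeds anywhere in their canonical transcript. The other 3 held matches outside the 3′UTR, which were to BNC2 siRNA 3 in PSMB10, to BNC2 siRNA 1 and BNC2 siRNA 3 in PSMD5 and to BNC2 siRNA 2 in PSME1. A match is a description of the letters and its part in any change was not tested.

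The libraries held 16093978 to 18246254 counts. BNC2 itself stood at 65.6, 51.5 and 58.6 CPM (counts relative to the scaled size of the library) with NC siRNA and at 35.5, 36.6 and 41.6 CPM with BNC2 siRNA. That is 64.6% of the control level (log2 fold change -0.63, SE 0.09, adjusted p = 8.2e-06 in edgeR's quasi-likelihood test), and the groups did not overlap. Of the mesenchymal markers, 5 of 5 were above 100 CPM in all libraries. With BNC2 siRNA 4 of them were called up and SPARC down, where 36.6% of all genes tested were called up and 36.2% down. CDH2 rose 2.57-fold, and VIM, FN1 and ZEB1 rose 1.13- to 1.31-fold. The epithelial markers CDH1, EPCAM, ESRP1 and GRHL2 had at most 0.0637 CPM in any library, close to or at 0. Of 5 blood and endothelial markers only CD14 passed the filter, at 1.38 to 2.03 CPM with NC siRNA and 0.508 to 0.70 CPM with BNC2 siRNA, while the other 4 stayed at or below 0.407 CPM. The groups separated on the first principal component of all genes, which held 90.8% of the variance, and no library stood apart from its group.

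Proteasome transcripts made up 0.626, 0.657 and 0.662% of all counts with NC siRNA and 0.518, 0.513 and 0.498% with BNC2 siRNA. Each BNC2 siRNA library was below each NC siRNA library. Of the 48 genes 46 passed the filter of more than 1 CPM in at least 3 libraries, and their lowest level in any library was the 4.33 CPM of PSMB9, so that none passed through a single group. PSMA8, the alpha subunit of the testis, and PSMB11, the beta subunit of the thymus, had 0 counts in all 6 libraries, where 3 counts would be 0.168 to 0.191 CPM.

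With BNC2 siRNA 27 of the 46 genes were called down, 9 were called up and 10 were not called at an adjusted p of at most 0.05. Over all 12186 genes tested 36.2% were called down and 36.6% up, against 58.7% and 19.6% of the proteasome genes. The median log2 fold change of the proteasome genes was -0.27, against 0.00 over all genes. The same 27 and 9 counts were obtained for genes whose libraries did not overlap between groups, below and above respectively, where all genes gave 37.2% and 37.7%. Most changes were small. The median size of the log2 fold change was 0.34, against 0.44 over all genes, and 6 genes fell and 2 rose by more than 1.5-fold.

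**Figure D1:**
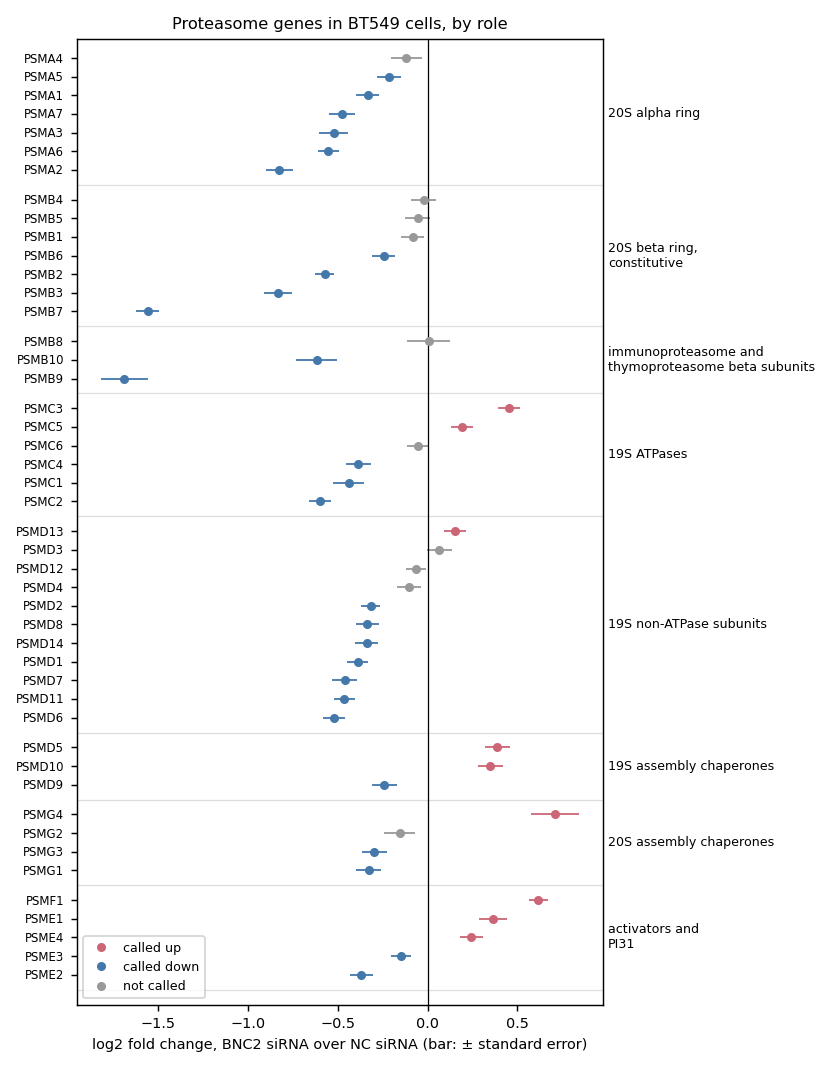
Log2 fold change (x axis, BNC2 siRNA over NC siRNA, 3 libraries each) of the 46 tested proteasome genes, grouped by role, with bars for the standard error and colours for the call at an adjusted p of at most 0.05. PSMB7 and PSMB9 lie furthest to the left at -1.56 and -1.69, while the 9 genes called up all lie outside the 20S core, between 0.15 and 0.71.

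The 20S core was lower as far as it was called. Of its 14 constitutive genes 10 were called down (71.4%), 0 up and 4 not called, and their median log2 fold change was -0.40. Over all genes tested 36.2% were called down and 36.6% up. In the alpha ring, which forms the gate of the core, 6 of 7 genes were called down (median -0.48). PSMA2 fell most, from 94.9, 95.3 and 115 CPM with NC siRNA to 58.7, 57.2 and 56.4 CPM with BNC2 siRNA. Each BNC2 siRNA library lay below each control library (log2 fold change -0.83, SE 0.08, adjusted p = 4.83e-08). PSMA6, PSMA3, PSMA7, PSMA1 and PSMA5 followed with log2 fold changes of -0.55, -0.52, -0.48, -0.33 and -0.21. PSMA4 was not called (log2 fold change -0.12, SE 0.09, adjusted p = 0.231), and its control libraries spread from 203 to 280 CPM. Without the first NC siRNA library it was called down, at -0.24 (adjusted p = 0.00212), and without the third it was at -0.0048 (adjusted p = 0.956), so that its value depends on these libraries.

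In the constitutive beta ring 4 of 7 genes (57.1%) were called down, against 36.2% of all genes tested, and 3 were not called. PSMB7, the subunit with trypsin-like activity, had the lowest log2 fold change of the ring. It stood at 542, 542 and 550 CPM with NC siRNA and at 191, 197 and 167 CPM with BNC2 siRNA. The control libraries lay close together (SD 4.56 CPM) and every BNC2 siRNA library was far below them, at 34.0% of the control mean (log2 fold change -1.56, SE 0.06, adjusted p = 2.41e-12).

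The other subunits with cutting sites moved little. PSMB6, with caspase-like activity, stood at 185, 184 and 197 CPM with NC siRNA and at 169, 164 and 145 CPM with BNC2 siRNA. The groups did not overlap and the fall was small (log2 fold change -0.24, SE 0.06, adjusted p = 0.00265). PSMB5, with chymotrypsin-like activity and the main site bound by proteasome inhibitors, stood at 153, 170 and 176 CPM and at 173, 163 and 145 CPM. Its groups overlapped and it was not called (log2 fold change -0.06, SE 0.07, adjusted p = 0.494).

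The beta subunits without cutting sites also differed among themselves. PSMB3 had 93.2, 101 and 106 CPM with NC siRNA and 61.4, 57.8 and 49.3 CPM with BNC2 siRNA, with no overlap (log2 fold change -0.83, SE 0.08, adjusted p = 7.04e-08). PSMB2 fell as well (log2 fold change -0.57, adjusted p = 5.65e-08). PSMB1 and PSMB4 were not called, at -0.08 (adjusted p = 0.249) and -0.02 (adjusted p = 0.796). Without the first NC siRNA library PSMB1 was called down, at -0.14 (adjusted p = 0.0456).

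**Figure D2:**
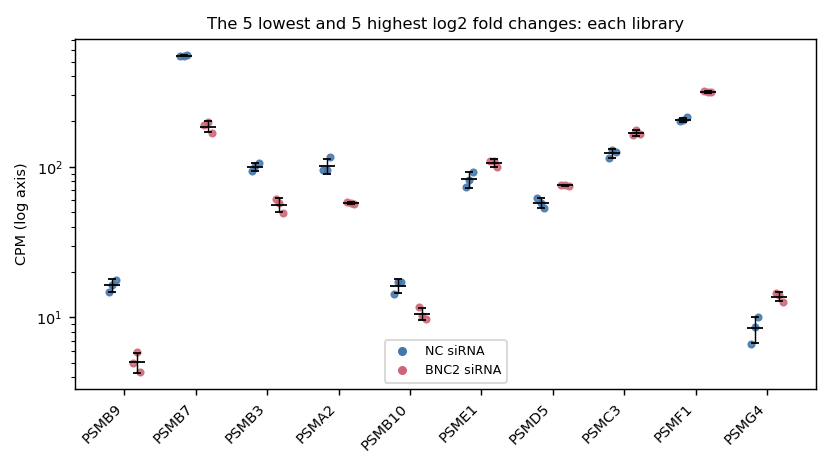
CPM in each library (log axis, bar for the mean and whiskers for ± SD, n = 3 per group) of the 5 proteasome genes with the lowest and the 5 with the highest log2 fold change. In all 10 genes the groups do not overlap, from PSMB9 at 14.7 to 17.8 CPM against 4.33 to 5.87 CPM, to PSMG4 at 6.7 to 9.99 CPM against 12.7 to 14.5 CPM.

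Levels of different genes were compared per kb of the longest coding transcript. PSMB7 had the highest mean level of the core genes with NC siRNA, at 554 CPM per kb, followed by PSMA7 at 242 and PSMB6 at 217 CPM per kb. With BNC2 siRNA PSMB7 was at 188, PSMB6 at 183 and PSMA7 at 174 CPM per kb. PSMB7 was at 2.51, 2.10 and 2.30 times the highest of the other 13 constitutive core genes in the control libraries. In the BNC2 siRNA libraries PSMB7 was at 0.996, 1.06 and 1.02 times the highest of them. Against the median of those 13 genes its level was 5.24 ± 0.25 times (SD, n = 3) and 2.56 ± 0.13 times. With the canonical transcript lengths PSMB6 came before PSMB7 in the BNC2 siRNA means and the order with NC siRNA was the same for the first 3 genes. PSMB5 and PSMB4 had near-equal levels, at 149 and 145 CPM per kb with NC siRNA and at 143 and 143 CPM per kb with BNC2 siRNA. The annotated lengths of PSMA4, PSMA5 and PSMB2 include long 3′UTRs that the counting annotation need not share, so that the low places of these genes in the order depend on the length used.

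**Figure D3:**
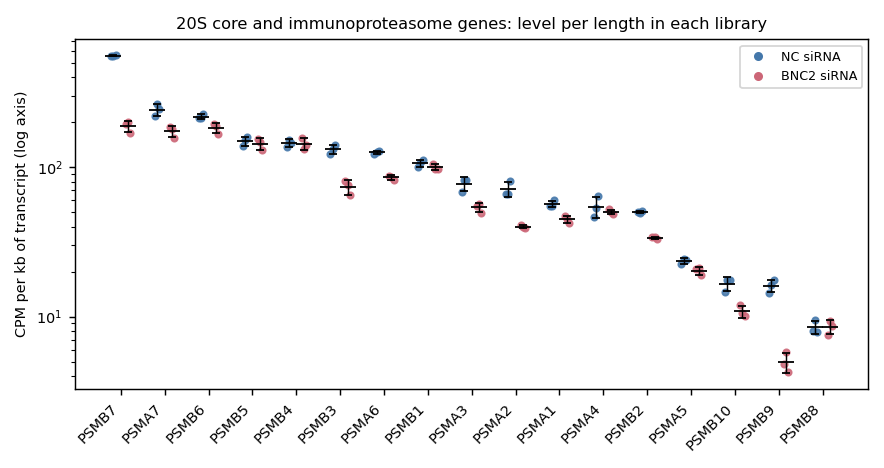
CPM per kb of the longest coding transcript (log axis) in each library for the 14 expressed constitutive 20S genes and the 3 immunoproteasome genes, in the order of the NC siRNA mean, with bars for the mean and whiskers for ± SD (n = 3 per group). PSMB7 stands above all others with NC siRNA at 554 and next to PSMB6 and PSMA7 with BNC2 siRNA, and the 3 immunoproteasome genes are the lowest in both groups.

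Summed over the 14 constitutive core genes, the level was 1910, 2024 and 2072 CPM per kb with NC siRNA and 1408, 1352 and 1240 CPM per kb with BNC2 siRNA. The ratio of the group means was 0.666. Without PSMB7 the sums were 1449 ± 79.8 and 1146 ± 72.1 CPM per kb (SD, n = 3), a ratio of 0.791. The 17 genes of the 19S cap summed to 1306 ± 66 and 1142 ± 9.84 CPM per kb, a ratio of 0.875. These sums were not tested, and in bulk RNA fewer transcripts per cell cannot be told apart from fewer cells that express them.

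PSMB7 lies on the minus strand of chromosome 9 (GRCh37, chr9:127115744-127177723), beside NEK6, a kinase gene on the plus strand (chr9:127019885-127115586). The gene table also lists LOC100129034, which RefSeq places within the span of PSMB7 and on the opposite strand. The reads were counted by strand, and these genes were therefore looked at together. LOC100129034 had 54.6, 55.6 and 54.5 CPM with NC siRNA and 118, 119 and 126 CPM with BNC2 siRNA (log2 fold change 1.14, SE 0.06, adjusted p = 4.81e-11). NEK6 had 51.1, 55.6 and 51.1 CPM and 110, 103 and 107 CPM (log2 fold change 1.02, SE 0.06, adjusted p = 3.68e-10). Both genes were higher in every BNC2 siRNA library, opposite in direction to PSMB7. LHX2, a transcription factor gene further along the chromosome beyond NEK6 (chr9:126763949-126795580), fell from 25.9, 27.6 and 29.7 CPM to 9.54, 8.86 and 9.36 CPM (log2 fold change -1.58, SE 0.10, adjusted p = 3.06e-10), in the same direction as PSMB7. These genes were chosen after their values were seen.

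**Figure D4:**
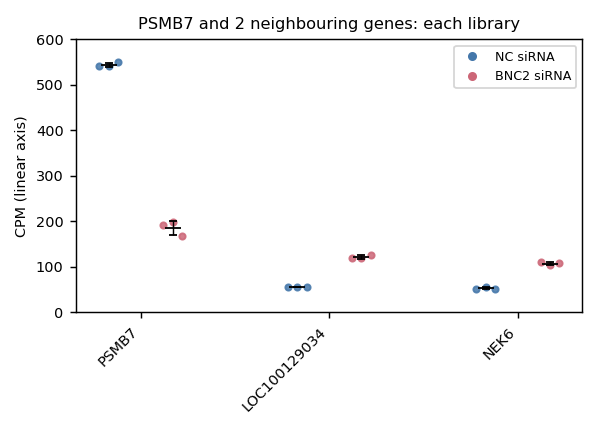
CPM in each library (linear axis from 0, bar for the mean and whiskers for ± SD, n = 3 per group) of PSMB7, LOC100129034 on the opposite strand and NEK6 next to it. PSMB7 is lower and both neighbours are higher in all 3 BNC2 siRNA libraries.

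When reads of both strands were counted, reads that touched exons of PSMB7 and LOC100129034 were assigned to neither gene. PSMB7 then kept 45.4% of its counts over the 6 libraries, whereas the other 45 tested proteasome genes kept 99.8 to 104%. The kept share was 54.1, 40.5 and 42.9% with NC siRNA and 42.2, 45.9 and 44.1% with BNC2 siRNA, so that the groups overlapped. The reads kept for PSMB7 alone fell 3.06-fold, from 250 ± 38.8 to 81.6 ± 8.52 CPM (SD, n = 3). The reads on PSMB7's strand over the exons of LOC100129034 fell 2.83-fold, from 304 ± 40.2 to 108 ± 9 CPM. Both stretches therefore showed a fall of similar size, close to the 2.94-fold fall of all reads counted for the gene. This division was chosen after the data were seen.

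The immunoproteasome genes had the lowest levels per kb of the expressed core genes and did not move together. PSMB9, which takes the place of PSMB6, stood at 14.7, 16.5 and 17.8 CPM with NC siRNA and at 4.94, 5.87 and 4.33 CPM with BNC2 siRNA. This was the lowest log2 fold change of any proteasome gene, with a level at 31.0% of control and no overlap (log2 fold change -1.69, SE 0.13, adjusted p = 7.28e-09). PSMB10, which takes the place of PSMB7, stood at 14.3, 17.3 and 17.2 CPM and at 11.7, 10.3 and 9.81 CPM. All 3 BNC2 siRNA libraries were lower (log2 fold change -0.62, SE 0.11, adjusted p = 0.000124). PSMB8, which takes the place of PSMB5, stood at 10.7, 12.6 and 10.5 CPM and at 10.0, 12.5 and 11.5 CPM. Its groups overlapped and it was not called (log2 fold change 0.01, SE 0.12, adjusted p = 0.968), with a sign that turned in 8 of 15 alternative settings.

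Set against its constitutive counterpart per kb, PSMB9 was at 7.40 ± 0.53% of PSMB6 with NC siRNA and at 2.70 ± 0.31% with BNC2 siRNA (SD, n = 3). PSMB10 was at 3.01 ± 0.30% of PSMB7 and rose to 5.78 ± 0.48%, although its own level fell, since PSMB7 fell more. PSMB8 was at 5.71 ± 0.62% and 6.00 ± 0.98% of PSMB5, with overlapping libraries. These ratios were not tested. The sum of the 3 immunoproteasome genes was 41.2 ± 3.51 and 24.3 ± 1.35 CPM per kb.

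PSMB9 and PSMB8 lie close together in the MHC region of chromosome 6 (GRCh37, chr6:32811913-32827628 on the plus strand and chr6:32808494-32812456 on the minus strand), with TAP1, a subunit of the peptide transporter, on the minus strand inside the annotated span of PSMB9. TAP2, the partner of TAP1, lies beside PSMB8 (chr6:32789610-32806516, minus strand). Of these 4 genes PSMB9 and TAP2 were called down and PSMB8 and TAP1 were not called. TAP2 had 72.9, 67.7 and 70.9 CPM with NC siRNA and 57.6, 53.7 and 58.3 CPM with BNC2 siRNA, without overlap (log2 fold change -0.32, SE 0.06, adjusted p = 0.000325). TAP1 had 32.3, 31.4 and 29.7 CPM with NC siRNA and 34.0, 33.9 and 33.7 CPM with BNC2 siRNA (log2 fold change 0.12, SE 0.07, adjusted p = 0.154). In GENCODE the annotated ends of PSMB8 and PSMB9 overlap on opposite strands, and the counts kept the strands apart. The RefSeq start of PSMB9 used below lies next to a TAP1 start instead.

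The RefSeq promoters (GRCh38.p14, from 250 bases before to 50 bases after the start) of the 3 immunoproteasome genes are shown because these genes responded differently. Capitals mark matches to the 5 motifs searched on both strands, which were TGACNNNGC (the core read by NRF1 and NRF2), the interferon-stimulated response element (ISRE, GAAA and GAAA separated by any 2 bases), TTCNNNGAA (gamma-activated site), a kappaB-like motif (GGG and TTTCC separated by any 2 bases) and CCAAT. The windows are PSMB9 at chr6:32853942-32854241 on the plus strand, PSMB8 at chr6:32843998-32844297 on the minus strand and PSMB10 at chr16:67936801-67937100 on the minus strand, each read 5′ to 3′ along its gene.

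PSMB9: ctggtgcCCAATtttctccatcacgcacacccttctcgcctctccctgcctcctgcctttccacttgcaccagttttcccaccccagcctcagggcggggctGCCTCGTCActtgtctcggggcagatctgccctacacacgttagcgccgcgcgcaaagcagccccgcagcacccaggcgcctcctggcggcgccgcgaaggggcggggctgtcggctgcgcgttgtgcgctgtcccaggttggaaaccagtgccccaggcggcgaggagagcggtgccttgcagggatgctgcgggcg
PSMB8: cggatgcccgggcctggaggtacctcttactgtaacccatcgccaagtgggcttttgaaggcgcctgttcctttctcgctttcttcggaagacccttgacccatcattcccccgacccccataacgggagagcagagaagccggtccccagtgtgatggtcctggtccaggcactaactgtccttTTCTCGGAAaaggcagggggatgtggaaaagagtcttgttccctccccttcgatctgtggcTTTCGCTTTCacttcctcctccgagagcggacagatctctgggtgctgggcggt
PSMB10: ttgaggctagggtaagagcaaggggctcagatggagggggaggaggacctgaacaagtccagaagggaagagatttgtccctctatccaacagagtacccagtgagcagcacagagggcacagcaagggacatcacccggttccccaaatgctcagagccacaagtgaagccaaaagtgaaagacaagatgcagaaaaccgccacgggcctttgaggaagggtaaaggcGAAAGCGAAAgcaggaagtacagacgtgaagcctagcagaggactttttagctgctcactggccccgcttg

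PSMB9 held a TGACNNNGC match on the reverse strand and a CCAAT match, and no ISRE match in this window. The window of a TAP1 start (chr6:32853655-32853954, minus strand) overlaps the first bases of the PSMB9 window. It held overlapping ISRE matches at bases -134 to -119 from that start and a kappaB-like match, all upstream of the PSMB9 window shown. PSMB8 held an ISRE match on the reverse strand across its start and a TTCNNNGAA match, and a further PSMB8 start with a window of its own held none of the 5. PSMB10 held an ISRE match just before its start. Promoters were matched for 42 of the 48 proteasome genes. TGACNNNGC was found in 35.7% of them against 16.1% of 27305 genes, ISRE in 16.7% against 4.38%, TTCNNNGAA in 19% against 9.38%, the kappaB-like motif in 2.38% against 2.33% and CCAAT in 47.6% against 39.7%. The 7 proteasome genes with an ISRE match were PSMA4, PSMB4, PSMB8, PSMB10, PSME1, PSME2 and PSMG4, which include genes called up, called down and not called. A match is a description and not a bound site.

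In the 19S cap 10 of 17 genes were called down (58.8%), 3 up (17.6%) and 4 not called (median log2 fold change -0.34). Of all genes tested 36.2% were called down and 36.6% up. The 6 ATPases were split, with 50% called down and 33.3% up. PSMC2, PSMC1 and PSMC4 fell, with log2 fold changes of -0.60, -0.44 and -0.38, and PSMC2 reached 66.0% of control (adjusted p = 1.42e-07). PSMC3 rose, from 114, 129 and 125 CPM with NC siRNA to 163, 176 and 165 CPM with BNC2 siRNA. All 3 BNC2 siRNA libraries were above the controls (log2 fold change 0.45, SE 0.06, adjusted p = 4.83e-06). PSMC5 was at 153, 167 and 176 CPM and at 188, 185 and 192 CPM, also without overlap (log2 fold change 0.19, SE 0.06, adjusted p = 0.00977). Its call was lost without the first NC siRNA library, at 0.12 (adjusted p = 0.0653). The call of PSMC5 was also lost with total counts only, at 0.115 (adjusted p = 0.09), and with upper quartile scaling, at 0.133 (adjusted p = 0.0613). PSMC6 was not called (log2 fold change -0.05, SE 0.06, adjusted p = 0.43).

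Of the 11 non-ATPase subunits 7 were called down (63.6%, against 36.2% of all genes tested), 1 up (9.09%, against 36.6%) and 3 not called. The 7 lower genes lay close together, with log2 fold changes from -0.52 in PSMD6 to -0.32 in PSMD2. They include the large scaffold subunits PSMD1 and PSMD2, at -0.39 and -0.32, and PSMD14, the deubiquitinase that removes ubiquitin chains, at -0.34 (adjusted p = 0.000133). PSMD4, a ubiquitin receptor, was not called over all libraries (log2 fold change -0.10, SE 0.07, adjusted p = 0.177) and was called down without the first NC siRNA library, at -0.19 (adjusted p = 0.0043). PSMD13 was at 81.5, 88.2 and 84.8 CPM with NC siRNA and at 95.5, 98.7 and 88.5 CPM with BNC2 siRNA. The groups were separated by a narrow gap (log2 fold change 0.15, SE 0.06, adjusted p = 0.0394), and the call was lost without any of 5 of the 6 libraries in turn, with log2 fold changes of 0.10 to 0.16 and adjusted p from 0.0592 to 0.159, the exception being the third BNC2 siRNA library. PSMD3 was at 89.2, 100.5 and 94.1 CPM and at 108, 93.5 and 95.6 CPM, with overlapping groups and no call (log2 fold change 0.07, SE 0.07, adjusted p = 0.398).

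The chaperones that build the 19S base from its ATPases went in both directions. PSMD5 rose from 62.1, 57.2 and 53 CPM with NC siRNA to 76, 75.1 and 74.6 CPM with BNC2 siRNA, without overlap (log2 fold change 0.39, SE 0.07, adjusted p = 7.37e-05). PSMD10, also known as gankyrin, rose too (log2 fold change 0.35, adjusted p = 0.000282). PSMD9 was the member that fell, from 41, 41.2 and 42.9 CPM to 35.2, 34.1 and 36.5 CPM (log2 fold change -0.24, SE 0.07, adjusted p = 0.00576).

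The PSMG chaperones pair up to assemble the alpha ring of the core. PSMG1 and PSMG3 fell, with log2 fold changes of -0.33 and -0.30, and PSMG2 was not called at -0.16 (adjusted p = 0.121) but was called down without the first NC siRNA library, at -0.24 (adjusted p = 0.0175). PSMG4, which acts as the partner of PSMG3, had the highest log2 fold change of all proteasome genes, from 6.7, 8.63 and 9.99 CPM with NC siRNA to 14.5, 14 and 12.7 CPM with BNC2 siRNA. Every BNC2 siRNA library was higher (log2 fold change 0.71, SE 0.13, adjusted p = 0.000161), and the gene was called up whichever library was left out.

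Among the genes of the other activators and PI31, 3 of 5 were called up (60%) and 2 down (40%), against 36.6% and 36.2% of all genes tested. PSMF1, whose product PI31 was described as a proteasome inhibitor, rose from 200, 203 and 213 CPM with NC siRNA to 319, 314 and 312 CPM with BNC2 siRNA. The libraries of each group were tightly grouped and did not overlap (log2 fold change 0.62, SE 0.05, adjusted p = 2.16e-08). PSME4, which encodes a large nuclear activator, rose less (log2 fold change 0.24, adjusted p = 0.00298).

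PSME1 and PSME2 encode the 2 subunits of a single ring-shaped activator that interferon induces, and they moved in opposite directions. PSME1 stood at 73.1, 81.6 and 93 CPM with NC siRNA and at 109, 110 and 99.1 CPM with BNC2 siRNA (log2 fold change 0.36, SE 0.08, adjusted p = 0.000543). PSME2 stood at 120, 134 and 135 CPM and at 103, 104 and 94.8 CPM (log2 fold change -0.37, SE 0.06, adjusted p = 7.73e-05). Neither gene had overlapping groups. PSME3, which encodes a related nuclear activator, stood at 193, 188 and 203 CPM and at 178, 182 and 168 CPM. It was called down by a narrow margin (log2 fold change -0.15, SE 0.06, adjusted p = 0.0274), and the call was lost without the first BNC2 siRNA, the third BNC2 siRNA or the third NC siRNA library, at -0.15, -0.12 and -0.14 (adjusted p = 0.0546, 0.114 and 0.0678).

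Of 11 further genes of proteasome subunits and bound proteins 8 were called down, 1 up and 2 not called (median log2 fold change -0.27), where 36.2% of all genes tested were called down and 36.6% up. TXNL1, a thioredoxin-like protein bound to the cap, had 154, 153 and 159 CPM with NC siRNA and 107, 99.97 and 103 CPM with BNC2 siRNA (log2 fold change -0.59, SE 0.06, adjusted p = 7.8e-08). The cap subunits ADRM1, a ubiquitin receptor, and SHFM1 fell with log2 fold changes of -0.57 and -0.55. POMP, the chaperone that completes the core, fell by a similar amount (log2 fold change -0.54, adjusted p = 1.41e-06). KIAA0368, the adaptor that holds cap and core together, was called up at 0.20 (adjusted p = 0.00238).

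**Figure D5:**
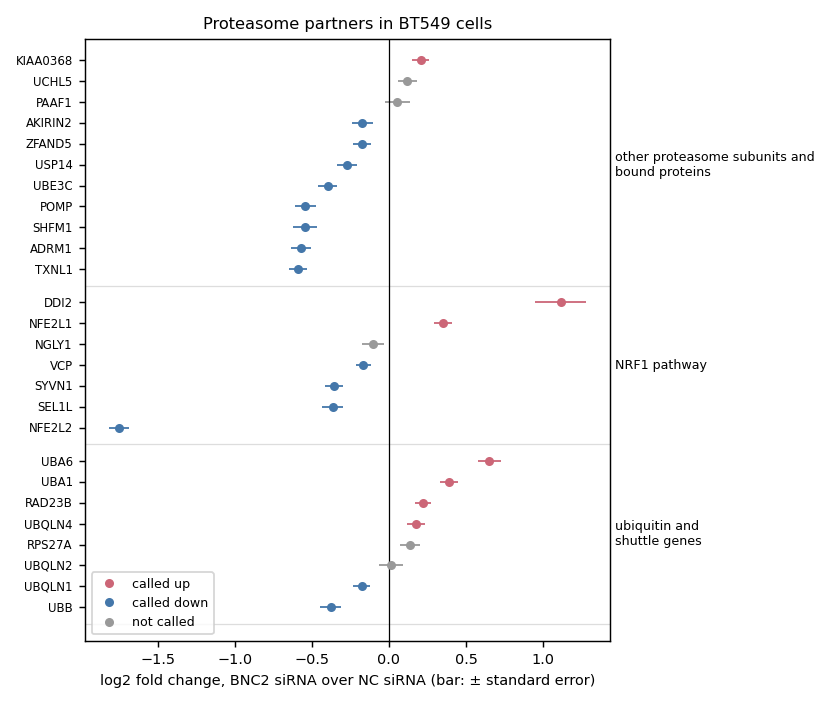
Log2 fold change (x axis, BNC2 siRNA over NC siRNA, 3 libraries each, bars for the standard error) of genes outside the PSMA to PSMG symbols that are part of the proteasome or work with it. NFE2L2 at -1.75 and DDI2 at 1.11 lie furthest from 0, while the proteasome-bound genes lie between -0.59 and 0.20.

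Of 7 genes that encode NRF1, its related factor NRF2 or proteins that process NRF1, 2 were called up, 4 down and 1 not called, where 36.6% of all genes tested were called up and 36.2% down. NFE2L1, which encodes NRF1, had 173, 163 and 157 CPM with NC siRNA and 200.3, 209.8 and 219 CPM with BNC2 siRNA (log2 fold change 0.35, SE 0.06, adjusted p = 4.92e-05). DDI2, the protease that cleaves NRF1 into its active form, was low at 6.2, 5.49 and 4.45 CPM and rose to 9.6, 10.8 and 14.7 CPM (log2 fold change 1.11, SE 0.17, adjusted p = 1.51e-05). NFE2L2, which encodes NRF2, fell from 119, 118 and 118 CPM to 33.7, 36.2 and 35.7 CPM (log2 fold change -1.75, SE 0.06, adjusted p = 5.23e-13). The groups of NFE2L1, DDI2 and NFE2L2 did not overlap. VCP, SYVN1 and SEL1L, which move NRF1 out of the endoplasmic reticulum, fell by 0.17, 0.35 and 0.37 on the log2 scale.

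Of 8 genes for ubiquitin, its activating enzymes and the shuttle factors that carry tagged proteins to the cap, 4 were called up, 2 down and 2 not called. Over all genes tested 36.6% were called up and 36.2% down. UBA6, an activating enzyme, rose from 62.7, 56 and 51.7 CPM to 84.4, 90.1 and 93.1 CPM (log2 fold change 0.65, SE 0.07, adjusted p = 6.17e-07). Every BNC2 siRNA library was above the controls. UBA1, the main activating enzyme, was also called up, at 0.39 (adjusted p = 2.21e-05). The polyubiquitin gene UBB was called down, at -0.38 (adjusted p = 8.93e-05).

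Among 14 genes of MHC class I and interferon control, which work with the immunoproteasome, 10 were called down, 2 up and 2 not called, where 36.2% of all genes tested were called down and 36.6% up. HLA-B, ERAP2, IRF1, NLRC5, B2M and IRF2 fell by 1.88, 1.52, 1.49, 1.40, 1.07 and 0.60 on the log2 scale, and reads shared between HLA genes are missing from these counts.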

How the data were processed

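Poly(A) RNA of 6 BT549 libraries (3 NC siRNA, 3 BNC2 siRNA, grouped by their labels) was examined. The authors deposited raw gene counts without normalisation, made with STAR (2.6.1d per the submitters' processing notes) on hg19 with the iGenomes UCSC annotation. The counts are uniquely mapped single-end reads on the reverse strand, so that reads shared between near-identical genes are missing. Reads assigned to no gene (37.7% to 41.1% of a library) were left out. Deposited totals were 16093978 to 18246254 counts, and 3 counts correspond to 0.168 to 0.191 CPM (counting error only).

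Genes above 1 CPM in at least 3 libraries (12186 of 23346) were scaled with TMM (factors 0.972 to 1.04) and tested by edgeR's quasi-likelihood method with no block term. P-values were Benjamini-Hochberg adjusted over all genes and called at 0.05. This took the place of the study's likelihood ratio test, which was an alternative. SE is the log2 fold change divided by the square root of F. CPM are TMM-scaled. An exact two-sided permutation test of 3 against 3 cannot go below 0.1. R 4.3.3, edgeR 4.0.16, limma 3.58.1, DESeq2 1.42.0, Python 3.11.15 and matplotlib 3.10.9 were used, and the scripts were tested on simulated data.

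Positions and transcript lengths came from GENCODE on GRCh37 and promoters from RefSeq on GRCh38.p14. The proteasome genes and the other lists were chosen with earlier results of these data known. Values in every library are given for PSMB5 to PSMB10, PSME1, PSME2, the 5 largest rises and 5 largest falls, and genes whose direction differed from most of their subgroup. Of the other lists, genes called at more than 1.5-fold are named, and others as examples. Protein sequences were not used here. A few genes of the other lists are not reported here and were left out of their counts and plot.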

Additional observations from a re-analysis of the deposited data

How the results depend on the processing

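The settings tried were edgeR's likelihood ratio test, DESeq2, DESeq2 size factors, total counts only, upper quartile scaling, no low-count filter, edgeR's own filter, the replicate block, counts of both strands, and leaving out each library in turn. Of 690 results (46 genes under 15 settings) 650 kept their direction and their side of the threshold. The 12 results that turned in direction were of genes that were not called in any setting. PSMB8 was at -0.0017 with DESeq2, -0.0020 with DESeq2 size factors, -0.071 with total counts only and -0.051 with upper quartile scaling, and at -0.065 to 0.095 when a library was left out. PSMB4 was at 0.0083 without the filter and at -0.086 to 0.041 when a library was left out, PSMB5 at -0.13 to 0.0094 when a library was left out, and PSMD3 at -0.0095 with total counts only.

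Calls were lost in PSMC5, PSMD13 and PSME3 and gained in PSMA4, PSMB1, PSMD12, PSMD4 and PSMG2 under at least 1 setting. The counts of proteasome genes called moved most with total counts only, to 32 down and 7 up, and without the first NC siRNA library, to 31 down and 7 up. Over all genes, 4922 of 12186 were called down and 3950 up with total counts only. Without the first NC siRNA library 4237 of 11846 were called down and 4359 up. The main setting gave 4417 down and 4462 up of 12186. Scaling by total counts moved the median of all genes by -0.076. The replicate numbers of the groups did not pair the libraries, since the correlations of same-numbered libraries were -0.21, -0.081 and -0.13. With the replicate block 8 proteasome genes were called up and 26 down, against 9 and 27, and PSMD13 (adjusted p = 0.088) and PSME3 (adjusted p = 0.0841) were not called. Over all genes the block gave 4245 up and 4155 down, against 4462 and 4417. The cause of these differences was not tested.

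The depth limits PSMB8, PSMB9, PSMB10 and PSMG4 most, for which single libraries held few counts, down to 68 for PSMB9. The counts measure RNA and not assembled proteasomes, and the siRNAs to BNC2 were given as a mix.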
